A study of Mus musculus with 14 samples.

Results

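C2C12 cells, an immortalized mouse myoblast line, were followed from the first to the second day in differentiation medium, the interval in which single myoblasts line up and begin to fuse into myotubes. Both libraries compared here came from cells transfected with control siRNA (siCtrl) and moved from growth medium to low-serum medium with horse serum. One library was made on day 1 and the other on day 2. The transcripts compared were those whose FPKM averaged at least 10 over the 8 RNA libraries of the study, which are siCtrl and Klf5 siRNA (siKlf5, a pool of siRNAs) cells on days 0, 1, 2 and 3. This left 11591 of 24016 transcripts, 10968 of them protein-coding. The day 1 and day 2 values chose the members only through that mean. A transcript low on day 1 can therefore be a member through its day 2 and later values. The transcripts next to the threshold were Zfp429 (mean 9.97) just outside and Fetub (mean 10.0) just inside.

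Each siRNA and day is 1 library, so the spread between replicates is unknown and differences carry no p-value. The FPKM values, reads per length and sequencing depth, were scaled by the authors to a matrix total of 10000000, which makes them larger than FPKM in the usual sense. A ratio is given as log2 of day 2 over day 1 after adding 0.1 to both values. It is followed by a 95% exact interval that covers counting error only. In what follows, "rose" and "fell" are used for ratios past 2-fold, which is a size and not a test. The day 1 library held 7850497 reads on transcripts and the day 2 library 20301506, a 2.59-fold difference in depth. In these bulk samples, fewer cells of a type and less RNA per cell cannot be told apart.

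When myoblasts lose serum, MyoD and Myf5, which mark the committed state, are joined by myogenin, and together with Mef2 proteins they switch on genes of the contractile apparatus. The cells leave the cell cycle, fuse, and assemble thick filaments of myosin and thin filaments of actin, troponin and tropomyosin between Z-discs. The membrane systems that couple excitation to calcium release, and the postsynaptic apparatus, are built in the same period. Embryonic and neonatal myosins come first, and adult forms follow.

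The bases before the start of 6 genes are printed to show the regulatory letters next to the changes described below. They are the 250 bases before the transcript start, read from the mm9 genome on the strand of the gene. The first 4 belong to muscle genes, and capitals mark the E-box CANNTG, the core that MyoD and myogenin bind, where N is any base. The pattern reads the same on both strands. Myl4 (chr11:104411727-104411976, plus strand) and Myh1 (chr11:67013366-67013615, plus strand) held no such letters in this window. Mybph (chr1:136089775-136090024, plus strand) held 1 and Casq1 (chr1:174150027-174150276, minus strand) held 2.
Myl4: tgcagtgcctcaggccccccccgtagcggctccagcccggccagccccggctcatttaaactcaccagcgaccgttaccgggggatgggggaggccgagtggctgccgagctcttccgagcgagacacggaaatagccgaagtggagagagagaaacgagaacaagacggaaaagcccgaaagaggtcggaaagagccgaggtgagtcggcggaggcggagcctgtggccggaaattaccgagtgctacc
Myh1: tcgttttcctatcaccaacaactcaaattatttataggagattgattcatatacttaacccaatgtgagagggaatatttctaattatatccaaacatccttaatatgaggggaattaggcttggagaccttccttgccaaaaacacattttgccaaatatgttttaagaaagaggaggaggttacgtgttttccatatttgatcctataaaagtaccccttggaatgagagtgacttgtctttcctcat
Mybph: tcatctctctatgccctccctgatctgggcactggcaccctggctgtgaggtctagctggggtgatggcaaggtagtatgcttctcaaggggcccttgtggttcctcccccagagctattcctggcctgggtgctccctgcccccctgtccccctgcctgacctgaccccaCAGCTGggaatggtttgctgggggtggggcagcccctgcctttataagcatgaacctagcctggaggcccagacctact
Casq1: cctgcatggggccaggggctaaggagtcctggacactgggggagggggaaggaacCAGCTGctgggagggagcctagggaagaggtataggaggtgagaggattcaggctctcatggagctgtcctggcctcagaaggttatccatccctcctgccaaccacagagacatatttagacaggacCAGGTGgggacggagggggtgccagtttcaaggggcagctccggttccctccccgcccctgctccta

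E-box letters were frequent in all windows. Of the windows of all 11591 members, 55.4% held CANNTG, against 78.0% of 141 members of the 7 muscle lists described below and 80.8% of the 52 of these that rose. The form CAGCTG, a subset of the former, stood in 11.8%, 34.0% and 36.5% of the same sets. Among all 968 members that rose, 62.5% held CANNTG, and among the 237 that fell 65.8% did. These shares are a description of letters and not of binding.

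The other pair belongs to genes of the amino acid response, which fell in this interval. Capitals mark TGATGNAA on either strand, the letters of the composite element that Atf4 binds in such genes. Asns (chr6:7643183-7643432, minus strand) and Chac1 (chr2:119176728-119176977, plus strand) each held 1.
Asns: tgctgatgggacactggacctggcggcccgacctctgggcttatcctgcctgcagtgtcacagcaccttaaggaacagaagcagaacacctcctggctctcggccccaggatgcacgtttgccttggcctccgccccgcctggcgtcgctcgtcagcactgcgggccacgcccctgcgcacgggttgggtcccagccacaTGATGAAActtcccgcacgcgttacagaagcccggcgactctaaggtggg
Chac1: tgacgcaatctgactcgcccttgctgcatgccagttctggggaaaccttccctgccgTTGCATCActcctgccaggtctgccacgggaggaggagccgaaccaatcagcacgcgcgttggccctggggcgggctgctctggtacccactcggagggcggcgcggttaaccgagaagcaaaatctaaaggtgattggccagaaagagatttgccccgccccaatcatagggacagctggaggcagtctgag

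TGATGNAA stood in 1.75% of the windows of all members, in 1.86% of those that rose and in 2.95% of those that fell. It stood in 3 of 18 windows of the list of endoplasmic reticulum and amino acid stress genes. Of the 5 genes of that list that fell, 2 held it, and these are the 2 printed above.

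The 2 genes used as markers of muscle differentiation, Myl4 and Mybph, were higher on day 2. Myl4, the embryonic and atrial essential myosin light chain (chr11:104411977-104448533), was at 59.5, 616, 1685 and 2390 FPKM in siCtrl cells on days 0, 1, 2 and 3. Its day 2 over day 1 ratio was 1.45 (interval 1.17 to 1.75), so that it rose. Mybph, a myosin-binding protein of the thick filament (chr1:136090025-136097809), was at 143, 1774, 2619 and 3337 FPKM on the same days. Its ratio was 0.56 (0.44 to 0.69), above no change but short of 2-fold. Both had most of their fold increase before day 1, with log2 ratios of day 1 over day 0 of 3.37 and 3.63.

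Klf5, the target of the siRNA in the rest of the study, went from 381 to 614 FPKM in siCtrl cells, a ratio of 0.69 (0.42 to 0.97). In siKlf5 cells it was at 35.1, 160, 192 and 211 FPKM on days 0, 1, 2 and 3, below siCtrl cells on each day (224, 381, 614 and 933 FPKM).

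The cells were checked against markers of other cell types. Of 29 such markers in the table, 9 were members. Of these, 3 rose (Cebpa, Cdh1 and Krt14, each under 30 FPKM on both days) and 0 fell, against 8.35% and 2.04% of all members. Set against members of like abundance, as described below, none of the adipocyte or epithelial members passed 2-fold. In siKlf5 cells 0 of the 9 rose and 2 fell. In siCtrl cells the summed FPKM of each list was small on both days except for the neural list. Endothelial markers summed to 1.83 on day 1 and 3.31 on day 2, with Pecam1 at 0 on both. Leukocyte markers summed to 12.7 and 10.8, with Ptprc at 0. Adipocyte markers summed to 77.4 and 70.7, with Fabp4, Plin1 and Lep at 0. Osteoblast markers summed to 72.3 and 93.8, of which Runx2, also made by mesenchymal precursors, was 50.1 and 66.9. Epithelial markers summed to 15.0 and 35.6, with Epcam and Krt5 at 0, while Cdh1 went from 9.76 to 24.9. The neural list summed to 808 and 487 FPKM, nearly all of it the tubulin gene Tubb3, with Rbfox3 at 0.

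In the comparison of all members, 968 were higher on day 2 by at least 2-fold, 8.35% of the 11591, and 237 were lower by at least 2-fold, 2.04%. The median ratio was 0.16 with quartiles of -0.15 and 0.48, so list medians below are to be read against 0.16 and not against 0. Counts within lists are likewise to be read against 8.35% for rises and 2.04% for falls. Of the transcripts that rose, 151 were not protein-coding and 129 had fewer than 60 reads in both libraries together. Among those that fell these numbers were 61 and 63. Short transcripts were noisy: of 244 under 200 bases, 92 rose and 46 fell. Demanding that the bound of the interval nearest to no change lay past 2-fold left 153 that rose and 47 that fell.

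The ratio depended on abundance. In the lowest of 10 equal groups by mean FPKM the median ratio was 0.42, in the fifth it was 0.23, and in the highest it was -0.25. The lowest group, next to the threshold, held 313 of the 968 rises and 90 of the 237 falls. Among the 100 most abundant members the median was -0.76, 15 fell and 0 rose. Those 100 had a median of 3.52 reads per base of exon on day 1 and 5.63 on day 2. The authors set a limit of 3 reads per position when counting. On day 2, 322 members had more than 3 reads per base, so that the limit does not cap reads per base as computed here, and how it treats strands and read ends is not given in the sources used here. The ribosomal RNA transcript Rn45s had 169268 reads on day 1 and 150469 on day 2, although the second library was 2.59 times as deep. The corresponding siKlf5 pair, with a 1.45-fold difference in depth, went only from 0.08 in the lowest group to -0.07 in the highest. The part of depth and of the limit on reads in this trend was not tested. For that reason each list is also given after subtracting the running median of the 201 members closest in abundance. This is called the abundance-centred ratio, a choice made after seeing the data. The window includes the genes of the list itself and is shorter at the ends of the abundance range. On the abundance-centred scale 634 members (5.47%) rose and 379 (3.27%) fell. The share of rises among all changes was 62.6% against 80.3% without centring.

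**Figure D1:**
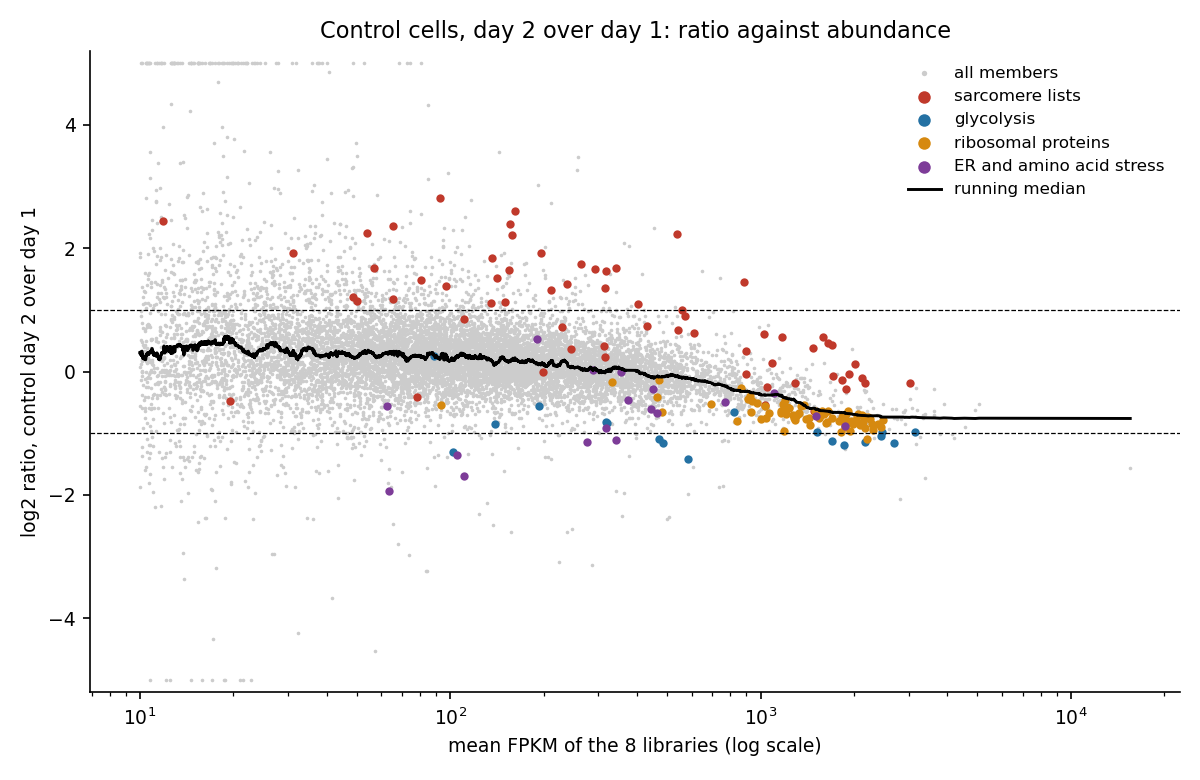
Each point is a member, with its mean FPKM over the 8 libraries on a log axis and its log2 ratio of day 2 over day 1 in siCtrl cells on the vertical axis, drawn at 5 or -5 where larger. The black line is the running median, which is above 0 for most members and below it among the most abundant (median of the top 100, -0.76), and dashed lines mark 2-fold; sarcomere genes lie mostly above the line, glycolysis genes below it, and ribosomal proteins near or below it.

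**Figure D2:**
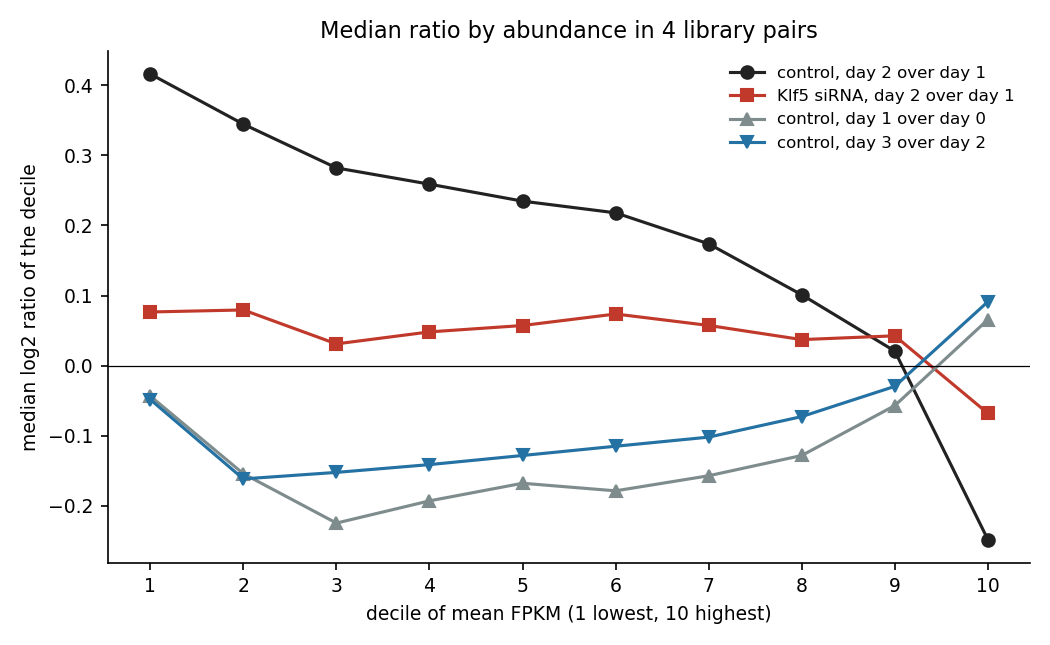
Median log2 ratio in 10 equal groups of members ordered by mean FPKM, for 4 pairs of libraries. The siCtrl pair of day 2 over day 1 runs from 0.42 to -0.25, the siKlf5 pair stays between 0.08 and -0.07, and the siCtrl pairs before and after, which each share a library with the first, turn upwards in the highest group.

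Genes of the sarcomere made up the clearest group among the increases. Of 65 members in the lists of thick filament, thin filament, and Z-disc, M-band and titin genes, 30 rose and 0 fell, or 46.2% against 8.35% of all members. Their median ratio was 0.86, and 0.98 abundance-centred. A further 16 of the 65 had ratios below 0, all short of 2-fold.

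Within the thick filament, 11 of 18 members rose and the median was 1.43. Most of these were myosin heavy chains. Myh1, the fast type IIx chain, went from 164 FPKM on day 1 to 772 on day 2, a ratio of 2.23 (2.03 to 2.44). Myh8, the neonatal chain, went from 70.1 to 265 (1.92, interval 1.61 to 2.24). Myh7, the slow chain, went from 20.6 to 106 (2.36, interval 1.80 to 2.99), and Myh7b, encoded by a related gene, from 11.4 to 54.2 (2.24, interval 1.49 to 3.12). By contrast Myh3, the embryonic chain, was already at 1564 FPKM on day 1 and at 2107 on day 2, a ratio of 0.43 (0.36 to 0.50). Mylpf, the fast regulatory light chain, was at 2469 and 2304 FPKM (-0.10, interval -0.27 to 0.07). Myosin heavy chain genes share stretches of sequence, and reads could be split among them in counting. Of 20 thick filament genes in the table, Myl2 and Myl3 were not members. Myl3 had no reads on either day, and Myl2 was at 0 on day 1 and 27.2 FPKM on day 2.

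In the thin filament list the members that rose were among the less abundant. None of the abundant actins, troponins and tropomyosins passed 2-fold, and their ratios lay on both sides of 0. Acta1, skeletal actin, was at 3588 FPKM on day 1 and 3163 on day 2 (-0.18, interval -0.28 to -0.08), and Tnnt3, a fast troponin T, at 2028 and 2208 (0.12, interval -0.03 to 0.28). Tnnt1, the slow troponin T, was at 821 and 1260 FPKM (0.62, interval 0.38 to 0.86), and the tropomyosin Tpm3 at 1194 and 817 (-0.55, interval -0.70 to -0.40). The 5 of 19 members that rose were other genes of the list, at 62.0 to 289 FPKM on day 1. Klhl41 (0.90, interval 0.70 to 1.11) and Tmod1 (0.37, interval 0.11 to 0.64), also of the list, did not pass 2-fold. Neb, the giant protein nebulin that runs along the thin filament, went from 62.0 to 223 FPKM, a ratio of 1.84 (1.67 to 2.02). Lmod2 and Lmod3, leiomodins that nucleate actin, had ratios of 1.32 and 1.09, Klhl40, which stabilizes nebulin and leiomodin, of 1.39, and Nrap of 1.12. The median of the list was 0.37, and 0.82 abundance-centred, so its standing against other members depended on the abundance of its genes.

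In the list of Z-disc, M-band and titin genes 14 of 28 rose and the median was 1.06. Csrp3, a muscle LIM protein, went from 26.3 to 186 FPKM (2.82, interval 1.55 to 4.48), and Smpx from 42.5 to 259 (2.61, interval 1.67 to 3.73). Myoz2, a calcineurin-binding Z-disc protein, went from 71.5 to 376 FPKM (2.39, interval 1.70 to 3.19). Trim63, the ubiquitin ligase MuRF1, went from 69.9 to 323 (2.21, interval 1.65 to 2.82). Titin itself, Ttn, went from 33.3 to 77.3 FPKM, a ratio of 1.21 (1.09 to 1.34). Des, the intermediate filament protein desmin, which is present before fusion, was at 2451 and 1509 FPKM (-0.70, interval -0.79 to -0.61), and its abundance-centred ratio was -0.03.

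Genes that couple excitation to contraction included the largest rise of all members by the bound nearest to no change. Casq1, the calcium-binding protein of the fast sarcoplasmic reticulum, was at 7.10, 43.6, 486 and 766 FPKM on days 0, 1, 2 and 3, a day 2 over day 1 ratio of 3.48 (2.79 to 4.26). Its cardiac and slow relative Casq2 was already at 980 FPKM on day 1 and at 1503 on day 2 (0.62, interval 0.48 to 0.76). Scn4a, the adult muscle sodium channel, went from 31.6 to 186 FPKM (2.56, interval 2.12 to 3.03). Cacna1s, the voltage sensor of the calcium release unit, went from 95.1 to 318 (1.74, interval 1.47 to 2.02). Ryr1, the release channel, went from 150 to 349 (1.21, interval 1.08 to 1.36). In all, 7 of 21 members rose, 0 fell, and the median was 0.61.

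Of 11 members of the neuromuscular synapse list, 3 rose, and all 11 had ratios above 0 with a median of 0.81. Lrp4 and Musk, the receptor pair for agrin, had ratios of 1.32 (1.10 to 1.54) and 1.25 (0.90 to 1.63). The acetylcholine receptor subunits Chrna1 and Chrng were at 997 and 1036 FPKM on day 1 and at 1022 and 1201 on day 2, ratios of 0.04 and 0.21. Chrne, the subunit of the adult receptor, was no member, with 0 on day 1 and 6.61 FPKM on day 2.

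Fusion and sarcolemma genes changed less. Of 24 members 4 rose and 0 fell, and the median was 0.36. Among those that rose were Itgb1bp2 (melusin), which binds integrin (2.01, interval 1.48 to 2.60), Dysf, dysferlin of membrane repair (69.9 to 198 FPKM), and Cav3, muscle caveolin (1.93, interval 1.14 to 2.84). The 2 muscle fusogens had smaller ratios. Tmem8c (myomaker) was at 1210 FPKM on day 1 and at 1401 on day 2 (0.21, interval 0.04 to 0.39), and Gm7325 (myomixer) at 569 and 982 (0.79, interval 0.47 to 1.12). Adam12, a gene of the list that was no member, went from 0.82 to 8.29 FPKM (3.20, interval 1.04 to 7.56).

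In muscle energy metabolism 8 of 20 members rose and 0 fell, with a median of 0.83. Pygm, muscle glycogen phosphorylase, went from 184 to 551 FPKM (1.58, interval 1.29 to 1.88), Mb, myoglobin, from 171 to 511 (1.58, interval 1.07 to 2.13), and Fabp3, the muscle fatty acid binding protein, from 40.6 to 199 (2.29, interval 1.05 to 3.86). Ampd1 and Ckmt2 had no reads on day 1, so that the size of their ratios is set by the added 0.1. The lower bounds of their intervals were 1.17 and 0.01. With the day 1 counts of both genes set at the 3 events that a count of 0 allows, 7 rose and the median was 0.67. Ckm, muscle creatine kinase, was at 693 and 768 FPKM (0.15, interval -0.08 to 0.38), after 21.0 on day 0.

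Over the 4 muscle lists outside the sarcomere, 22 of 76 members rose and 0 fell, or 28.9%, and the median was 0.58. Adding these to the sarcomere lists, none of 141 members fell. Only 2.04% of all members fell, so a count of 0 here is not far from that share. Xirp2, a gene of the Z-disc list that was no member, went from 14.9 to 4.13 FPKM (-1.82, interval -2.61 to -1.10).

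**Figure D3:**
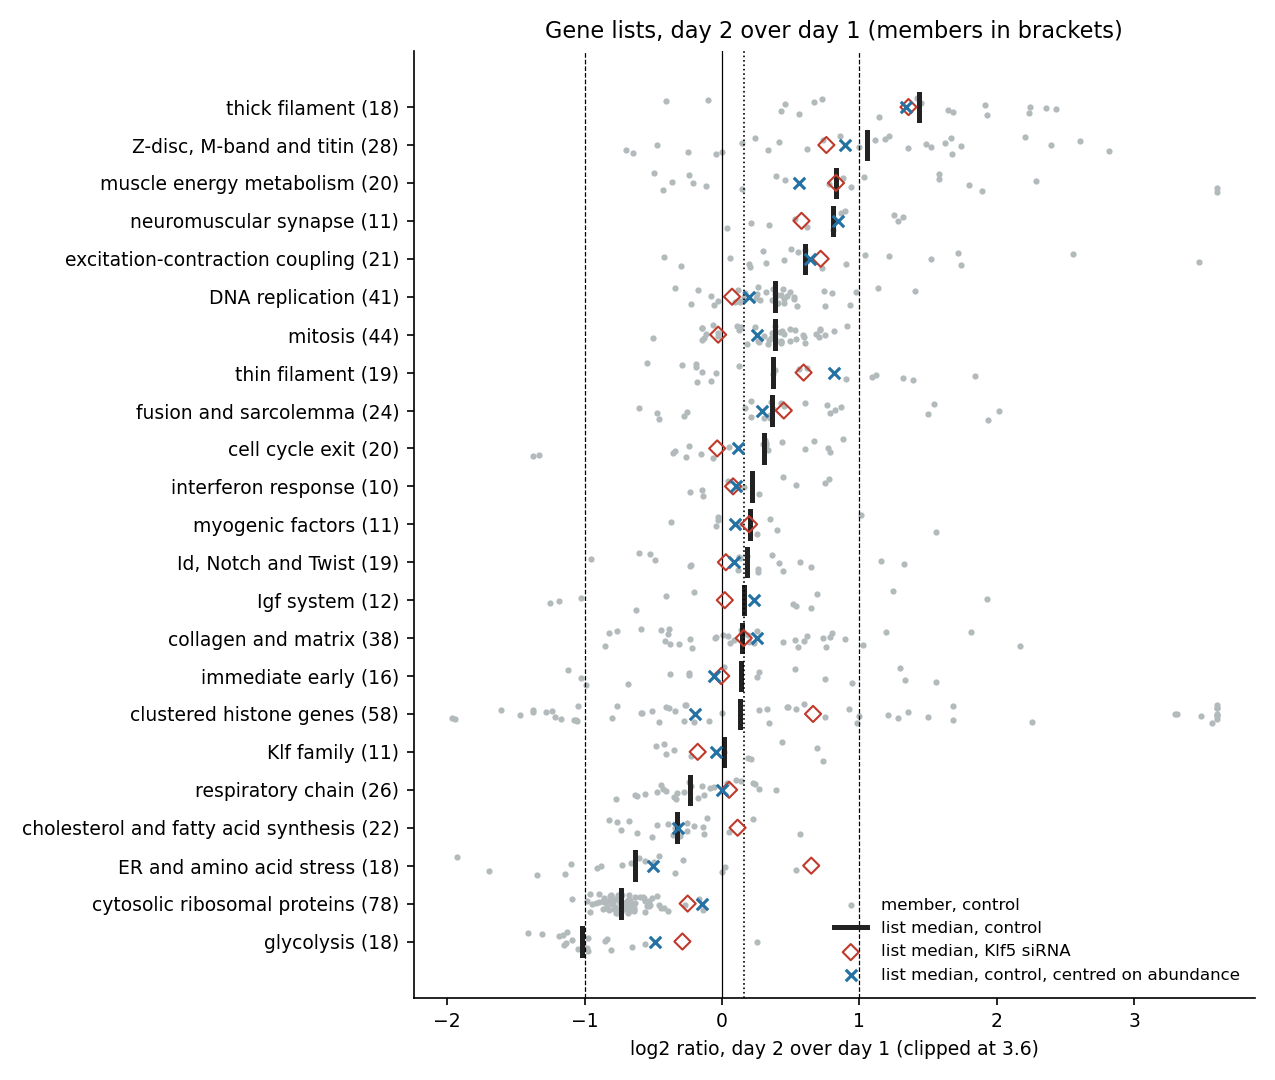
Log2 ratio of day 2 over day 1 for the members of 23 gene lists (grey points, siCtrl, drawn at 3.6 where larger) with the list median in siCtrl cells (black bar), the same after centring on abundance (blue cross) and the list median in siKlf5 cells (red diamond); the dotted line is the median of all members, 0.16, and dashed lines mark 2-fold. The 5 uppermost are muscle lists with medians from 0.61 to 1.43, thin filament and fusion genes stand lower, and glycolysis is at the bottom with -1.02.

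Of the transcription factors above these genes 2 rose, Mef2c and Tead4. Mef2c, which binds the promoters of contractile genes, was at 18.7, 55.2, 163 and 315 FPKM on days 0, 1, 2 and 3, and its day 2 over day 1 ratio was 1.56 (1.21 to 1.93). Tead4, the muscle-enriched Tead factor, went from 183 to 370 FPKM (1.01, interval 0.72 to 1.31). Myog, myogenin, was at 1896 and 2061 FPKM (0.12, interval -0.01 to 0.26), after most of its increase had taken place between day 0 (479 FPKM) and day 1. Abundance-centred, the ratio of Mef2c was 1.31, that of Tead4 0.88, short of 2-fold, and that of Myog 0.72. Myod1 was at 494 and 479 FPKM (-0.04, interval -0.29 to 0.20) and Myf5 at 154 and 178 (0.21, interval -0.19 to 0.62). Mef2a and Mef2d had ratios of 0.26 and 0.40. Srf, Six4 and Pax7 had ratios of -0.03, 0.35 and -0.37, and the interval of each included 0. Of 14 factors listed, 11 were members. Of the others Myf6 was at 6.27 and 5.03 FPKM, Pax3 at 0 and 1.24, and Mef2b at 0 on both days.

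Among repressors of the myogenic factors, Id1, which sequesters their partners, rose from 40.3 to 101 FPKM (1.33, interval 0.25 to 2.61), still below the 271 FPKM of day 0. The Notch ligand Jag1 rose from a low level, 7.14 to 16.1 FPKM (1.16, interval 0.10 to 2.43). None of the other 17 members of the list of Id, Notch and Twist genes passed 2-fold. The lowest of the 17 was Msc, musculin, which blocks MyoD at E-boxes, at 106 and 54.6 FPKM (-0.95, interval -1.58 to -0.31). The 2 rises among 19 members are a share near the 8.35% of all members. Abundance-centred, 1 member of the list rose and 1 fell.

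**Figure D4:**
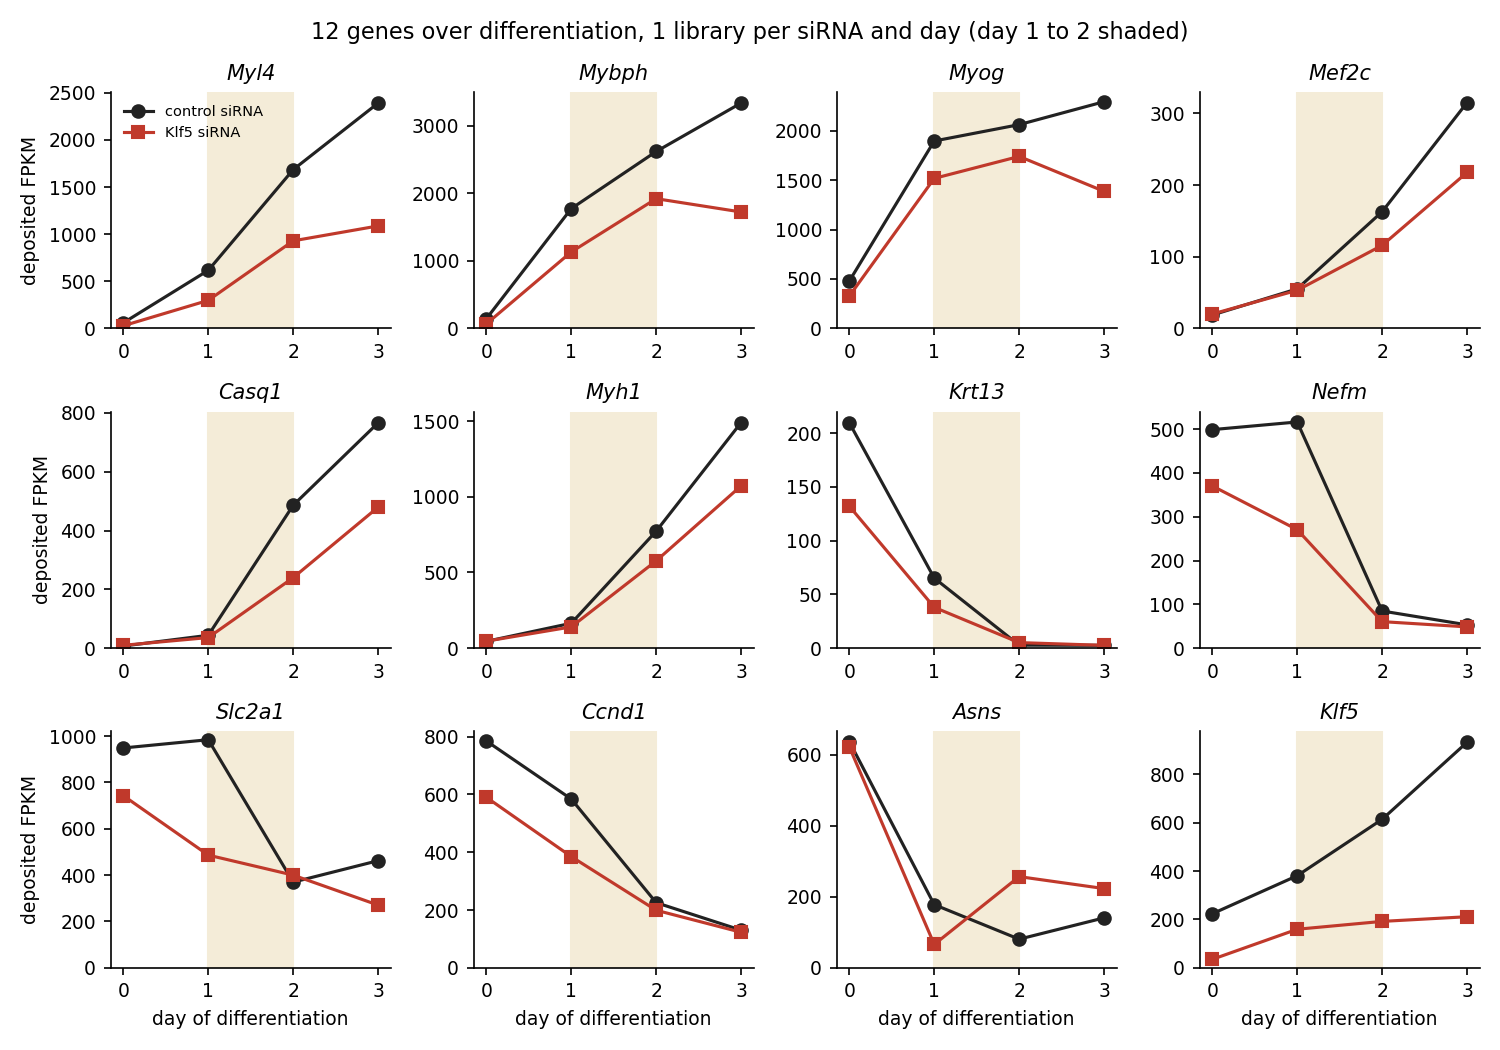
FPKM of 12 genes on days 0, 1, 2 and 3 (horizontal axis) in siCtrl (black circles) and siKlf5 cells (red squares), 1 library per point, with the interval from day 1 to day 2 shaded; each vertical axis starts at 0. Casq1, Myh1 and Mef2c climb from day 1 in both conditions, Krt13 and Nefm drop, and Asns goes from 178 to 80.6 FPKM in siCtrl cells but from 65.8 to 257 in siKlf5 cells.

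Cell division genes, whose medians had been -1.37 (DNA replication) and -1.39 (mitosis) from day 0 to day 1, did not continue downwards from day 1 to day 2. From day 2 to day 3 their medians were again below 0, at -0.59 and -0.72. Of 41 DNA replication members 2 rose and 0 fell, with a median of 0.39 from day 1 to day 2. That share of rises is below the 8.35% of all members. Tk1, thymidine kinase, was at 490, 126, 277 and 150 FPKM on days 0, 1, 2 and 3 (1.14, interval 0.62 to 1.69), and Rfc4, a subunit of the clamp loader, went from 31.8 to 84.4 FPKM (1.41, interval 0.34 to 2.67). Of 44 mitosis members 0 rose and 0 fell, with a median of 0.38. Top2a went from 273 to 357 FPKM (0.39, interval 0.20 to 0.58). Abundance-centred, the medians were 0.19 and 0.26. In siKlf5 cells they were 0.07 and -0.03.

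Of 20 genes of cell cycle exit, 2 fell and 0 rose. Ccnd1, the cyclin that growth factors induce, was at 784, 584, 225 and 130 FPKM on days 0, 1, 2 and 3 (-1.37, interval -1.56 to -1.19). Ccnd2 went from 183 to 72.6 FPKM (-1.33, interval -1.60 to -1.06). Ccnd3, the D cyclin retained in myotubes, was at 1186 and 1065 (-0.15, interval -0.31 to -0.00). Cdkn1a, the inhibitor p21, was at 2468 and 1944 FPKM (-0.34, interval -0.45 to -0.23), and 0.33 abundance-centred, so its direction depends on the scaling. Rb1 went from 154 to 244 FPKM (0.67, interval 0.41 to 0.93).

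Glycolysis was the list with the lowest median, and 9 of 18 members fell and 0 rose, against 2.04% of all members. The median was -1.02. Their summed FPKM went from 30582 to 14794. Slc2a1, the basal glucose transporter, was at 949, 985, 370 and 462 FPKM on days 0, 1, 2 and 3 (-1.41, interval -1.59 to -1.24). Ldha, lactate dehydrogenase, went from 3229 to 1468 FPKM (-1.14, interval -1.25 to -1.02), Pgk1 from 2862 to 1260 (-1.18, interval -1.30 to -1.07) and Pkm from 3747 to 1678 (-1.16, interval -1.25 to -1.07). Slc16a3, the lactate exporter, went from 199 to 80.1 (-1.31, interval -1.72 to -0.90).

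The size of the decrease was smaller against members of like abundance. Abundance-centred, 4 of the 18 still passed 2-fold, and the median was -0.49. These 4 were Slc16a3, Slc2a1 (-1.31), Hk1, the first enzyme of the pathway (-1.07), and Pfkl, a phosphofructokinase subunit (-1.01). Ldha, Pgk1 and Pkm had centred ratios of -0.43, -0.52 and -0.42. Muscle isoforms of these enzymes differed among themselves. Pfkm, the muscle phosphofructokinase, went from 455 to 838 FPKM (0.88, interval 0.69 to 1.07), and Pgam2, the muscle phosphoglycerate mutase, rose from 189 to 387 (1.03, interval 0.52 to 1.59). Eno3, the muscle enolase, was at 1525 and 1317 FPKM (-0.21, interval -0.37 to -0.05), and Aldoa, the muscle aldolase, at 3297 and 1675 (-0.98, interval -1.09 to -0.86).

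Other abundant housekeeping groups also had medians below 0. All 78 cytosolic ribosomal protein genes had ratios below 0, with a median of -0.73, and 1 passed 2-fold (Rps2, -1.09, interval -1.25 to -0.93). Centred on abundance the median was -0.15 and 0 passed. With a median mean FPKM of 1537, these 78 genes are themselves among the members they are centred on. A centred value near 0 is therefore partly built in. The 26 respiratory chain genes had a median of -0.23, which was -0.00 when centred, and 0 rose or fell. Cholesterol and fatty acid synthesis genes kept a median of -0.33 that was -0.32 when centred, and none of 22 passed 2-fold. Sqle, squalene epoxidase, had the lowest ratio of the 22, at 902 and 510 FPKM (-0.82, interval -0.98 to -0.66).

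In the list of endoplasmic reticulum and amino acid stress genes 5 of 18 fell and 0 rose, and the median was -0.63 (-0.50 centred, with the count still at 5). The 5 were Chac1, which degrades glutathione, Trib3, a pseudokinase that binds Atf4, Asns, asparagine synthetase, and Aldh1l2 and Mthfd2, enzymes of mitochondrial folate metabolism. Asns was at 636, 178, 80.6 and 141 FPKM on days 0, 1, 2 and 3 (-1.14, interval -1.61 to -0.67 for day 2 over day 1). Chac1 went from 98.7 to 30.5 FPKM (-1.69, interval -2.49 to -0.92) and Trib3 from 37.4 to 9.75 (-1.93, interval -3.18 to -0.75). Aldh1l2 went from 58.7 to 23.1 FPKM (-1.34, interval -1.82 to -0.87) and Mthfd2 from 246 to 114 (-1.10, interval -1.48 to -0.72). Atf4 itself was at 1124 and 888 FPKM (-0.34, interval -0.53 to -0.15). The chaperones of the endoplasmic reticulum Hspa5 and Hsp90b1 had ratios of -0.73 and -0.88, and 0 of the 5 intervals of the genes that fell lay past 2-fold as a whole.

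Growth factor and early response genes moved in both directions. In the Igf list 2 of 12 rose and 3 fell. Igfbp4 rose from 66.3 to 252 FPKM (1.93, interval 1.38 to 2.53) and Irs2 from 11.3 to 26.9 (1.25), while Igfbp3 fell from 47.1 to 20.7 (-1.18, interval -2.02 to -0.35). The abundant Igfbp2 fell from 2670 to 1123 (-1.25, interval -1.39 to -1.11) and Igfbp5 from 2970 to 1460 (-1.02, interval -1.09 to -0.96), with centred ratios of -0.57 and -0.31. Of 16 immediate early genes 3 rose and 2 fell. Egr3 and Nr4a1 rose, with ratios of 1.33 (0.90 to 1.79) and 1.30 (0.61 to 2.07), and Egr2 with 1.56 (0.36 to 3.06). Jund and Fosl1, AP-1 subunits, fell, with ratios of -1.12 (-1.28 to -0.96) and -1.03 (-1.46 to -0.59).

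In the matrix list 4 of 38 rose and 0 fell, with a median of 0.15, a share close to the 8.35% of all members and a median close to theirs. The 4 were Col12a1, a fibril-associated collagen that went from 8.90 to 40.5 FPKM (2.17, interval 1.56 to 2.88), Nid2 (1.19, interval 0.91 to 1.48), Col1a1 (1.03, interval 0.86 to 1.19) and Postn (1.81, interval 0.32 to 3.83). None of 10 interferon response members and none of 11 Klf family members passed 2-fold, with medians of 0.22 and 0.02. The remaining list, clustered histone genes, whose messages mostly lack poly(A) tails, was scattered: 18 of 58 rose and 14 fell. With the 7 that had no reads on 1 day set at the count that 0 allows, 11 rose and the median went from 0.13 to -0.00.

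Beyond Casq1, Scn4a and Myh1, the 12 largest rises by the interval bound held genes of other kinds. Trp63, a p53 family factor of stratified epithelia, was at 2.37, 8.63, 114 and 166 FPKM on days 0, 1, 2 and 3 (3.71, interval 2.18 to 5.94). Tagln, the actin-binding protein transgelin of smooth muscle, was at 79.2, 28.2, 231 and 288 FPKM (3.03, interval 2.10 to 4.15), so that its day 1 value was the lowest of the 4. Dnase1l3, a secreted nuclease, went from 4.44 to 70.7 FPKM (3.96, interval 2.52 to 6.06) and Als2cl from 3.24 to 43.4 (3.70, interval 2.27 to 5.82). Both were below 10 FPKM on day 0 and in siKlf5 cells on every day. They became members through siCtrl days 2 and 3. Ctxn3, Anxa8 (an annexin), Hephl1 and Tmem158 had ratios of 3.22, 2.73, 3.16 and 2.78.

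The 12 largest falls included 3 intermediate filament genes. Krt13, a keratin (chr11:99978910-99982809), was at 210, 65.1, 2.74 and 2.62 FPKM on days 0, 1, 2 and 3 (-4.52, interval -7.72 to -2.51), and Krt19 at 338, 354 and 58.2 on days 0, 1 and 2 (-2.60, interval -3.14 to -2.08). Nefm, the medium neurofilament (chr14:68737602-68743061), was at 499, 516, 84.7 and 53.1 FPKM (-2.61, interval -2.89 to -2.33). Krt19 and Nefm thus differed little between days 0 and 1 and fell between days 1 and 2. Gdf15, a stress-induced secreted factor, went from 402 to 68.6 FPKM (-2.55, interval -3.11 to -2.01), and the noncoding A230070E04Rik from 254 to 51.2 (-2.31, interval -2.82 to -1.82).

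A230070E04Rik (chr14:68741809-68749428, plus strand) overlaps Nefm, which lies on the minus strand, and without strand in the counting their reads in the overlap cannot be told apart. Near-identical copies filled several of these places. Prl2c3 and Prl2c4, prolactin-related proliferin genes of growing cells, had ratios of -2.36 and -2.39. The alpha-globin genes Hba-a1 and Hba-a2 had 141 reads each on day 1 and 39 each on day 2, and Gsta1 and Gm3776, glutathione transferases, had ratios of -3.13 and -3.08. Reads of such copies could be shared, and the members of each set are not separate observations. Another of the 12, Lars2 (-2.06, interval -2.14 to -1.99), went from 4362 to 1045 FPKM in the libraries in which ribosomal RNA (Rn45s) went from 22636 to 7680 FPKM and the structural RNAs Rmrp and Rpph1 from 965 and 756 to 266 and 191. What part these RNAs have in the value of Lars2 was not tested.

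The same interval was also sampled in siKlf5 cells, by libraries that the siCtrl pair does not share. It is a second pair under another condition and not a replicate. In it 540 of the 11591 members rose (4.66%) and 251 fell (2.17%). The 277 that rose in both were 28.6% of those in siCtrl cells and 51.3% of those in siKlf5 cells. The 61 that fell in both were 25.7% and 24.3%. Of the 65 sarcomere members 25 rose and 0 fell in siKlf5 cells, against 30 and 0 in siCtrl cells. Of the 76 other muscle members 19 rose and 0 fell, against 22 and 0. Myl4 had ratios of 1.45 (1.17 to 1.75) in siCtrl and 1.64 (1.23 to 2.08) in siKlf5 cells, and Mybph of 0.56 (0.44 to 0.69) and 0.76 (0.60 to 0.92).

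For the largest changes the 2 conditions are given side by side. Casq1 had ratios of 3.48 (2.79 to 4.26) in siCtrl and 2.74 (1.97 to 3.62) in siKlf5 cells, and Krt13 of -4.52 (-7.72 to -2.51) and -2.86 (-5.93 to -0.75), with intervals that overlap. Ttn had 1.21 (1.09 to 1.34) and 0.27 (0.16 to 0.39), Neb 1.84 (1.67 to 2.02) and 0.91 (0.76 to 1.07), and Tagln 3.03 (2.10 to 4.15) and 1.24 (0.79 to 1.71), with intervals that do not. Gdf15 had -2.55 (-3.11 to -2.01) and -0.31 (-0.90 to 0.29). Slc2a1 had -1.41 (-1.59 to -1.24) and -0.28 (-0.52 to -0.05), its day 1 level being 985 FPKM in siCtrl and 486 in siKlf5 cells and its day 2 level 370 and 400. None of 18 glycolysis members fell in siKlf5 cells, and their median was -0.29. In siCtrl cells 9 fell with a median of -1.02, but abundance-centred only 4 did, with a median of -0.49. The siKlf5 values are not centred, and the trend with abundance was weaker in that pair. Among the 100 most abundant members the median was -0.25 in siKlf5 and -0.76 in siCtrl cells. The intervals given cover counting error only, and the differences between conditions were not tested.

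Amino acid response genes went in opposite directions. In the stress list 0 of 18 fell and 7 rose in siKlf5 cells, with a median of 0.65 against -0.63. Asns went from 65.8 to 257 FPKM in siKlf5 cells (1.96, interval 1.38 to 2.60) while it fell from 178 to 80.6 in siCtrl cells. Chac1 went from 22.5 to 129 FPKM there (2.51, interval 1.45 to 3.81). On day 0 the conditions had been close, with Asns at 636 and 621 FPKM. Across all members, 37 fell in siCtrl and rose in siKlf5 cells and 46 did the reverse. In 7 of the former and 1 of the latter both intervals excluded 0, and the 7 were Asns, Chac1, Trib3, Aldh1l2, Mthfd2, Psph, the last enzyme of serine synthesis, and Fgf21, a secreted factor that amino acid shortage induces. The 1 was Zfp40, a zinc finger gene at 7.09 and 17.3 FPKM in siCtrl and 22.1 and 9.98 in siKlf5 cells.

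**Figure D5:**
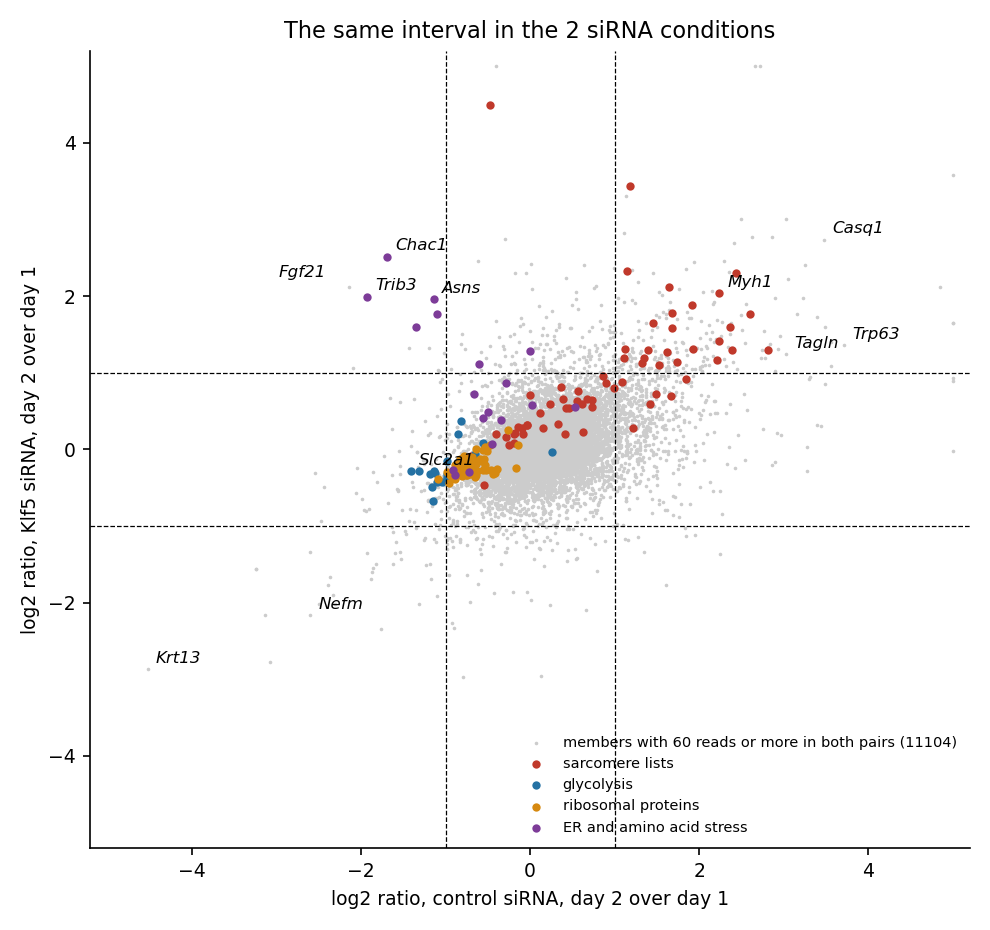
Log2 ratio of day 2 over day 1 in siCtrl (horizontal) and siKlf5 cells (vertical) for the 11104 members with at least 60 reads in each pair, drawn at 5 or -5 where larger, with dashed lines at 2-fold. Most sarcomere genes lie to the upper right of the centre, while 5 genes of the stress list and Fgf21 lie at the upper left, lower on day 2 in siCtrl and higher in siKlf5 cells.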

How the data were processed

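Poly(A) RNA of C2C12 cells was sequenced from both ends and aligned to mm9 with STAR. With HOMER the authors counted exonic reads per RefSeq transcript, on either strand, keeping at most 3 reads per position and 1 transcript per gene, and deposited FPKM values scaled to a matrix total of 10000000. The authors also deposited log2 columns of the same values, which served 1 alternative only. The number of columns with no day in their name, which were not used, is 1. No RNA counts were used.

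Value times exon length was a whole multiple of 1 step per library (2646 to 2866 values checked, 100% within 0.1), which gave the reads. Reads came in groups, 541 transcripts having 6 and 54 having 5 on day 1. The grouping was weaker on day 2, with 294 having 6 and 104 having 5. The exact binomial (Clopper-Pearson) 95% intervals were therefore computed on reads divided by 6 in every library. Whether 6 suits each library was not tested, and the simulated data held ungrouped reads. PCR copies are not independent molecules, and the intervals cover counting error only. Ratios used a pseudocount of 0.1. With 1 library per siRNA and day no test was made. Antisense genes can share reads.

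The genes named are Myl4, Mybph and Klf5, the myogenic and Mef2 factors, the 12 largest rises and falls by the interval bound nearest to no change, and for each list up to 4 members past 2-fold in each direction by that bound, or up to 2 of the highest. Further genes were named after their values were seen. Some genes that these rules select are not reported here. The members, lists and rules were chosen with earlier results of these data known. Calculations were tested on simulated data and used pandas 2.3.3, numpy 2.4.6 and scipy 1.17.1 in Python 3.11.15, with figures drawn in matplotlib 3.10.9. Sequences were read from the NCBIM37 (mm9) genome, and 3358 of 5846 plus strand starts equalled a GENCODE start counted from 1.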

Additional observations from a re-analysis of the deposited data

Results flagged for a closer look

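Genes of the amino acid response were past 2-fold in opposite directions in the 2 siRNA conditions, lower on day 2 in siCtrl and higher in siKlf5 cells. In siCtrl cells the log2 ratios of day 2 over day 1 were -1.14 for Asns, -1.69 for Chac1, -1.93 for Trib3, -1.34 for Aldh1l2 and -1.10 for Mthfd2. In siKlf5 cells they were 1.96, 2.51, 1.99, 1.59 and 1.77. Each condition is 1 library per day, and the difference was not tested. In both conditions these genes were lower on day 1 than on day 0.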

How the results depend on the processing

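With 1 library per day the limits are depth and abundance. Of 104 recalculated counts and ratios 82 stayed within 1.5 times (counts) or within the counting interval (ratios), and 22 moved. Only a ratio could reverse, and those of Myl4 and Mybph kept their sign. Of 389 recalculated list medians 384 moved by no more than the counting error of a typical member and 5 by more. Of those past 2-fold, 0 reversed. The error of a single member is a lenient yardstick for a median, and the cutoff of 1.5-fold cannot move a median. The 968 rises and 237 falls became 2024 and 722 for a mean of at least 1, 350 and 93 for at least 50, 3227 and 1656 with no filter, 2331 and 786 at 1.5-fold, and 153 and 47 by the interval bound. Centred on abundance they were 634 and 379. With the median ratio set to 0, falls were 358, and rises were 67.9% of changes against 80.3%; with upper-quartile scaling 71.6%. At 1.5-fold 38 other muscle genes were higher and 16 glycolysis and 10 stress genes lower. By the interval bound 5 and 0 were lower, and centred on abundance 4 glycolysis genes were. The ratio of Mybph was 0.40 with the median set to 0 and 1.20 centred, and that of Myl4 1.77 centred. The medians of the immediate early, Igf, matrix, osteoblast, leukocyte, adipocyte, Klf and histone lists changed sign under at least 1 setting. No paired analysis was possible because siCtrl day 1 and day 2 share only 1 replicate number, and the siKlf5 pair is another condition that was not fitted as a replicate.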

Other observations

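Some genes outside the lists, named after their values were seen, also changed between day 1 and day 2 in siCtrl cells. Fst, the activin and myostatin binding protein follistatin, was at 2.39, 37.6, 213 and 379 FPKM on days 0, 1, 2 and 3, and its day 2 over day 1 ratio was 2.50 (1.86 to 3.23). Cd36, a fatty acid transporter, went from 10.3 to 77.4 FPKM (2.89, interval 1.88 to 4.16). In siKlf5 cells their ratios were 1.76 and 1.98.

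Of 3 further genes of the neuronal cytoskeleton, Nefl and Stmn4 fell and Stmn2 did not pass 2-fold. Nefl, the light neurofilament, was at 1150, 1394, 380 and 172 FPKM on days 0, 1, 2 and 3 (-1.88, interval -2.06 to -1.69). Stmn4, a stathmin, went from 162 to 29.2 FPKM (-2.47, interval -3.32 to -1.67). Stmn2 was at 339 and 176 (-0.94, interval -1.27 to -0.61). In siKlf5 cells the ratios were -1.70, -0.94 and -0.26.

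Of genes known to respond to low oxygen, Car9, a carbonic anhydrase, fell from 46.1 to 14.8 FPKM (-1.63, interval -2.69 to -0.60). Pdk1, Ero1l and Vegfa had ratios of -0.85, -0.97 and -0.55, and Egln3 had 0.47.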
